A study of Mus musculus with 8 samples.

Results

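The 10 genes described here encode lectin-like receptors of natural killer (NK) cells outside the Ly49 family. They were taken by symbol from the count files as *Klrc1*, *Klrc2*, *Klrd1*, *Klrk1*, *Klrb1a*, *Klrb1b*, *Klrb1c*, *Klrb1f*, *Klre1* and *Klrg1*, and they are 10 of the 48321 gene symbols listed. All 10 were among the 12595 genes with enough reads to be tested. NK cells were sorted as CD45+ TCRb- NK1.1+ cells from lung and spleen of mice of the C57/Bl6 background and were sequenced without culture. The 4 groups were lung Wt, lung KO, spleen Wt and spleen KO, with 2 libraries each. KO stands for *Ccl5* ΔPE/ΔPE mice, a germline line made by genome editing in which the proximal enhancer of the chemokine gene *Ccl5* is deleted on both alleles, so that every cell of the mouse carries the deletion. The mice of the study were of both sexes and of mixed age, and the labels do not say which or how many mice gave a library. The p-values below therefore test differences against the spread between libraries of a group, fitted over the 4 groups together. That spread may be technical. The comparisons ask what loss of the enhancer does to NK cells in each organ, and how lung and spleen NK cells differ in each genotype.

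Reads counted on genes ranged from 3132963 to 26482366 per library. Levels are given in CPM, in which reads were divided by TMM-adjusted library totals, and a limit of 3 reads came to 0.113 CPM in the deepest library and 0.958 in the shallowest. Every receptor gene lay far above that limit in every library. *Ccl5* was at 19518 and 18350 CPM in lung Wt against 2992 and 3195 in lung KO, and at 16679 and 15664 in spleen Wt against 2676 and 2432 in spleen KO, so the genotype labels matched the targeted gene in all 8 libraries. The NK markers *Ncr1* and *Nkg7* were at 2801 CPM or above in every library.

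NK cells read the state of a neighbouring cell through paired sets of activating and inhibitory receptors. *Klrc1* (NKG2A, inhibitory) and *Klrc2* (NKG2C, activating) each pair with *Klrd1* (CD94), and the pairs bind the non-classical MHC class I molecule Qa-1, encoded by *H2-T23*. *Klrk1* (NKG2D) is an activating receptor for stress-induced ligands of the Raet1, H60 and *Ulbp1* families and signals through the adaptor *Hcst* (DAP10). The NKR-P1 receptors, encoded by *Klrb1* genes, bind products of the Clec2 genes, their neighbours on the chromosome: *Klrb1b* is inhibitory, *Klrb1a*, *Klrb1c* and *Klrb1f* are held to be activating, and *Klrb1c* is NK1.1, the antigen on which these cells were sorted. *Klre1* (NKG2I) pairs with *Klri1* or *Klri2*. *Klrg1* is an inhibitory receptor for cadherins that marks mature NK cells.

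All 10 genes lie on chromosome 6 (GRCm38, GENCODE M21). *Klrg1* stands apart at positions 122270596 to 122282882. The other 9 lie within the NK gene complex, with the *Klrb1* genes first, *Klrb1a* at 128609227 to 128623533, *Klrb1c* at 128778485 to 128789215, *Klrb1b* at 128813706 to 128826331 and *Klrb1f* at 129045901 to 129057464. Then follow *Klre1* at 129577905 to 129585827, *Klrd1* at 129591782 to 129598775, *Klrk1* at 129610323 to 129623864, *Klrc2* at 129647496 to 129660689 and *Klrc1* at 129666015 to 129678973. *Klrd1*, *Klre1* and *Klrb1f* are on the forward strand and the other 7 on the reverse strand. Reads of 50 bp cannot be placed uniquely wherever relatives share sequence. Of the 50-base windows of its transcripts, *Klrc1* shared 38.57% with another gene, *Klrb1b* 27.17%, *Klrb1c* 16.98%, *Klrc2* 16.26% and *Klrb1a* 9.92%. The counts of these 5 genes are uncertain where the counting could split them. The share was 0.31% for *Klre1* and 0 for *Klrd1*, *Klrk1*, *Klrb1f* and *Klrg1*. For *Klrb1b* and *Klrb1c*, most of the shared windows were shared with *Gm44511*. Exons of that annotated gene overlap those of both on the same strand, and it had 0 reads in every library. For *Klrb1b* and *Klrb1c* the share is therefore mostly one with an overlapping annotation and not with relatives elsewhere. How reads in the overlap were counted was not tested.

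Promoters were found in the RefSeq table (GRCm38.p6) for 8 of the 10 genes, and not for *Klrd1* and *Klrg1*. They were searched because most of these genes moved together between groups and because the deleted *Ccl5* enhancer carries RUNX recognition sequences. That enhancer lies on another chromosome, and a link of these motifs to the KO effect was not tested. In windows of 300 bases around the first listed start, the RUNX core TGTGGT was present on either strand in 6 of these 8 promoters, against 16.9% of all 27025 promoters in the table. GENCODE exons cover part of the 250 bases before the start for *Klrb1c* (5 bases), *Klrb1b* (16), *Klrc2* (93) and *Klre1* (250), so the count of 6 includes exon sequence. Of the 4 genes whose 250 bases lie outside exons, 3 hold the core there. For *Klrb1a*, 1 of these 3, the 250 bases end at 128623184, while the reverse-strand GENCODE gene reaches 128623533. They therefore lie within the annotated gene and not upstream of it. The 250 bases of *Klrb1c* and of *Klre1* also lie within their annotated genes. The T-box core AGGTGT was in 0 of 8 (13.9% of all promoters). The AP-1 motif TGANTCA was in 2 of 8, *Klrk1* and *Klrc2* (7.93% of all promoters). A match of letters does not show a bound site, and promoters of relatives are not independent of each other. The 250 bases before the start of *Klrb1a* and of *Klrb1c* were identical at 188 positions (75.2%). The 250 bases before the start are printed for 3 genes that hold the RUNX core, 1 from each branch of the family, and for *Klrb1f*, which does not hold it. Capitals mark TGTGGT or its reverse complement, and each sequence runs 5′ to 3′ on the strand of its gene. The capitals begin 129 bases before the start in *Klrk1* (chr6:129623865-129624114, reverse strand), 87 bases before it in *Klrc1* (chr6:129678974-129679223, reverse strand) and 126 bases before it in *Klrb1a* (chr6:128622935-128623184, reverse strand). The *Klrb1f* window is chr6:129045651-129045900, forward strand.
*Klrk1*: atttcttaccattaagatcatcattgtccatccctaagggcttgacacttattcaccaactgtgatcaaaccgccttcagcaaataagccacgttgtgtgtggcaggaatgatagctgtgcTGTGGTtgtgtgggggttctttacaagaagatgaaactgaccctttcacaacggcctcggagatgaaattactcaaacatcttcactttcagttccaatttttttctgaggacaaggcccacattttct
*Klrc1*: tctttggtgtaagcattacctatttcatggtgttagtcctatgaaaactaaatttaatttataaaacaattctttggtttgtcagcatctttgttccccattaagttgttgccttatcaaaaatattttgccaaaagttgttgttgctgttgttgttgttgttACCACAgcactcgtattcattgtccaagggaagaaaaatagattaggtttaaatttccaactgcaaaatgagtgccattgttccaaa
*Klrb1a*: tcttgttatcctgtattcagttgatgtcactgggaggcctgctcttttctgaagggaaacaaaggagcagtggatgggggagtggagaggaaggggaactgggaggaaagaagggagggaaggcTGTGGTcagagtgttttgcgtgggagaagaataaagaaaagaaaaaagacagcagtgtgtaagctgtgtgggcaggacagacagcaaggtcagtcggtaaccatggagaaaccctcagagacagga
*Klrb1f*: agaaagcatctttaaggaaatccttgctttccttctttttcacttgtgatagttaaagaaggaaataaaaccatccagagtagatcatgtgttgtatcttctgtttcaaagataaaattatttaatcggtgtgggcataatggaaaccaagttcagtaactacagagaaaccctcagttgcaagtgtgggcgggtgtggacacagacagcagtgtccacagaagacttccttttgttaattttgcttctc

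**Figure D1:**
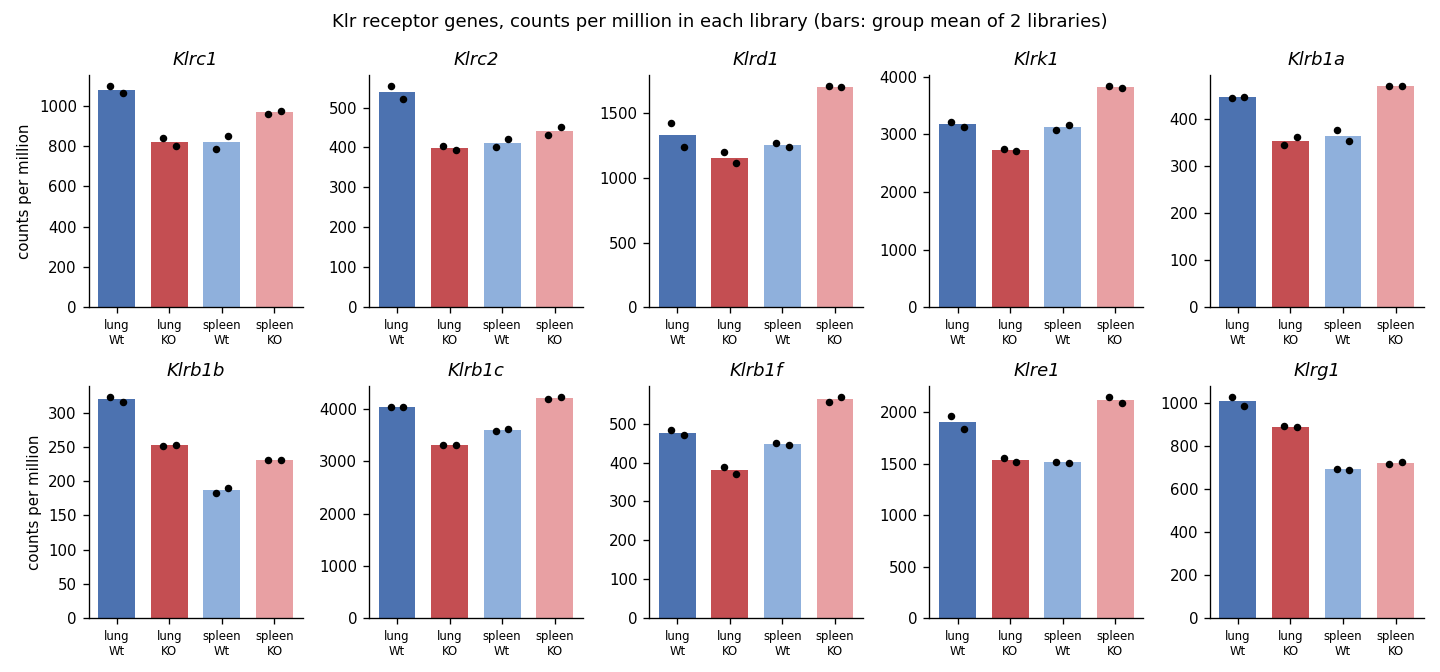
CPM (y axis, linear from 0) of each of the 10 receptor genes in the 4 groups. Points are the 2 libraries of a group and bars their mean. In every panel both lung KO points lie below both lung Wt points, and both spleen KO points lie above both spleen Wt points.

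In lung, KO NK cells had less RNA of every one of the 10 receptor genes than Wt NK cells, by 11.8% (*Klrg1*) to 26.2% (*Klrc2*). Once the trend with GC content was removed, 7 of the 10 still passed downward in lung, beside 3064 of all 12595 genes tested. *Klrk1* and *Klre1* then did not pass, and *Klrd1* turned upward. With the GC content of the longest transcript *Klrc1*, *Klrc2*, *Klrd1* and *Klrk1* were above 0 in lung. In spleen, 9 of the 10 were higher in KO, by 7.48% (*Klrc2*) to 40.0% (*Klre1*), and *Klrg1* did not pass the test. Changes of these sizes were common. An adjusted p below 0.05 in lung was reached by 55.6% of all genes tested, and by 26.4% in the downward direction. In spleen the shares were 57.1% in either direction and 28.2% upward. The median log2 fold change of the 10 genes was -0.32 in lung, beside 0.02 for all genes, and 0.30 in spleen, beside 0 for all genes. The median of the absolute log2 fold change was 0.32 in lung and 0.30 in spleen, beside 0.36 and 0.33 for all genes, so the 10 genes changed by no more than genes at large. The KO libraries did not overlap the Wt libraries for any of the 10 genes in either organ. Both KO libraries lay below both Wt libraries in lung for 36.7% of all genes tested, and above both in spleen for 36.4%. Of all genes, 12.8% passed the test downward in lung and upward in spleen, as 9 of the 10 did here. In these bulk samples, fewer cells that express a gene and less RNA per cell cannot be told apart.

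The inhibitory receptor gene *Klrc1* had 1098 and 1062 CPM in lung Wt and 837 and 799 in lung KO. In spleen it had 784 and 851 CPM in Wt and 957 and 976 in KO. The spleen Wt and lung KO libraries overlapped, and the lung Wt libraries were the highest of the 8. The log2 fold change of KO against Wt was -0.40 ± 0.04 (SE) in lung (adjusted p = 5.93e-11) and 0.24 ± 0.04 in spleen (adjusted p = 3.04e-06). *Klrc2*, its activating counterpart, had 554 and 521 CPM in lung Wt against 404 and 394 in lung KO, and 402 and 421 in spleen Wt against 431 and 450 in spleen KO. It showed the largest lung change of the 10 genes (log2 fold change -0.44 ± 0.04, adjusted p = 4.95e-11) and the smallest that passed in spleen (0.10 ± 0.04, adjusted p = 0.033). With the GC trend of the longest transcript removed, neither gene passed in lung (0.02 for *Klrc1* and 0.03 for *Klrc2*), and in spleen *Klrc2* was lower in KO (-0.20). The spleen change of *Klrc2* no longer passed without spleen Wt replicate 1 (0.08, adjusted p = 0.208) or without spleen KO replicate 2 (0.06, adjusted p = 0.46).

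*Klrd1*, the common partner chain, did not follow *Klrc1* and *Klrc2* in size. It had 1418 and 1239 CPM in lung Wt against 1196 and 1115 in lung KO, and 1271 and 1237 in spleen Wt against 1708 and 1696 in spleen KO. The spleen KO libraries stood above the other 6, and the Wt libraries of lung and spleen overlapped. Its log2 fold change was -0.21 ± 0.04 in lung (adjusted p = 8.58e-05) and 0.44 ± 0.04 in spleen (adjusted p = 4.46e-11). Reads of *Klrc1* per read of *Klrd1* were 0.774 and 0.857 in lung Wt against 0.700 and 0.716 in lung KO, and 0.617 and 0.688 in spleen Wt against 0.561 and 0.575 in spleen KO. This ratio was lower in the KO libraries of each organ than in the Wt libraries. Reads of *Klrc1* per read of *Klrc2* lay between 1.95 and 2.07 in 6 libraries and were 2.22 and 2.17 in spleen KO.

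*Klrk1*, which encodes the activating receptor NKG2D, had 3217 and 3136 CPM in lung Wt and 2754 and 2713 in lung KO. In spleen it had 3082 and 3162 CPM in Wt and 3842 and 3813 in KO. The Wt libraries of both organs overlapped, with the lung KO libraries below them and the spleen KO libraries above them. The log2 fold change was -0.22 ± 0.03 in lung (adjusted p = 9.66e-07) and 0.29 ± 0.03 in spleen (adjusted p = 2.05e-09). *Hcst*, the adaptor of NKG2D, had 117 and 102 CPM in lung Wt against 97.6 and 106 in lung KO, and 128 and 110 in spleen Wt against 147 and 135 in spleen KO. It passed the test in spleen (log2 fold change 0.24 ± 0.06, adjusted p = 0.00143) and not in lung (-0.12 ± 0.07, adjusted p = 0.166). Reads of *Klrk1* per read of *Hcst* lay between 24.1 and 30.7 in the 8 libraries, and every group overlapped the others.

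*Klrb1c*, the gene of NK1.1, was the most abundant of the *Klrb1* genes in CPM. It had 4036 and 4045 CPM in lung Wt against 3305 and 3310 in lung KO, and 3588 and 3612 in spleen Wt against 4186 and 4239 in spleen KO. The 2 libraries of each group lay close together, and no group overlapped another. The log2 fold change was -0.29 ± 0.03 in lung (adjusted p = 1.93e-09) and 0.23 ± 0.03 in spleen (adjusted p = 2.41e-07). The cells were gated on NK1.1, so the level of this gene and the choice of cells are not independent. *Klrb1a* and *Klrb1f*, the other activating members of the group, changed by similar factors. *Klrb1a* had 445 and 446 CPM in lung Wt against 345 and 361 in lung KO, and 375 and 352 in spleen Wt against 469 and 469 in spleen KO. *Klrb1f* had 483 and 470 CPM in lung Wt against 388 and 372 in lung KO, and 450 and 445 in spleen Wt against 557 and 569 in spleen KO. In lung the log2 fold change was -0.33 ± 0.04 for both genes, and in spleen it was 0.38 ± 0.04 for *Klrb1a* and 0.34 ± 0.04 for *Klrb1f*, each with an adjusted p of at most 3.74e-08.

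*Klrb1b*, the inhibitory member of the NKR-P1 group, had 323 and 316 CPM in lung Wt against 251 and 253 in lung KO, and 183 and 191 in spleen Wt against 231 and 231 in spleen KO. The lung libraries of both genotypes stood above all spleen libraries. Its log2 fold change was -0.34 ± 0.05 in lung (adjusted p = 5.33e-08) and 0.30 ± 0.05 in spleen (adjusted p = 1.22e-06). Reads of the activating *Klrb1c* per read of the inhibitory *Klrb1b* lay between 12.5 and 13.2 in the lung libraries and between 18.1 and 19.6 in the spleen libraries. The ratio differed by organ and, within each organ, differed little by genotype.

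*Klre1* showed the largest spleen change. It had 1964 and 1833 CPM in lung Wt against 1556 and 1511 in lung KO, and 1517 and 1507 in spleen Wt against 2149 and 2088 in spleen KO. The spleen Wt and lung KO libraries overlapped at the low end. The log2 fold change was -0.31 ± 0.04 in lung (adjusted p = 4.10e-09) and 0.48 ± 0.04 in spleen (adjusted p = 8.09e-14). *Klrg1*, the mature-cell receptor, differed more by organ than by genotype. It had 1028 and 985 CPM in lung Wt against 891 and 887 in lung KO, and 693 and 687 in spleen Wt against 717 and 723 in spleen KO. All 4 lung libraries stood above all 4 spleen libraries. The log2 fold change was -0.18 ± 0.04 in lung (adjusted p = 6.05e-05) and 0.06 ± 0.04 in spleen (adjusted p = 0.154), where it was -0.01 when libraries were scaled by their totals.

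**Figure D2:**
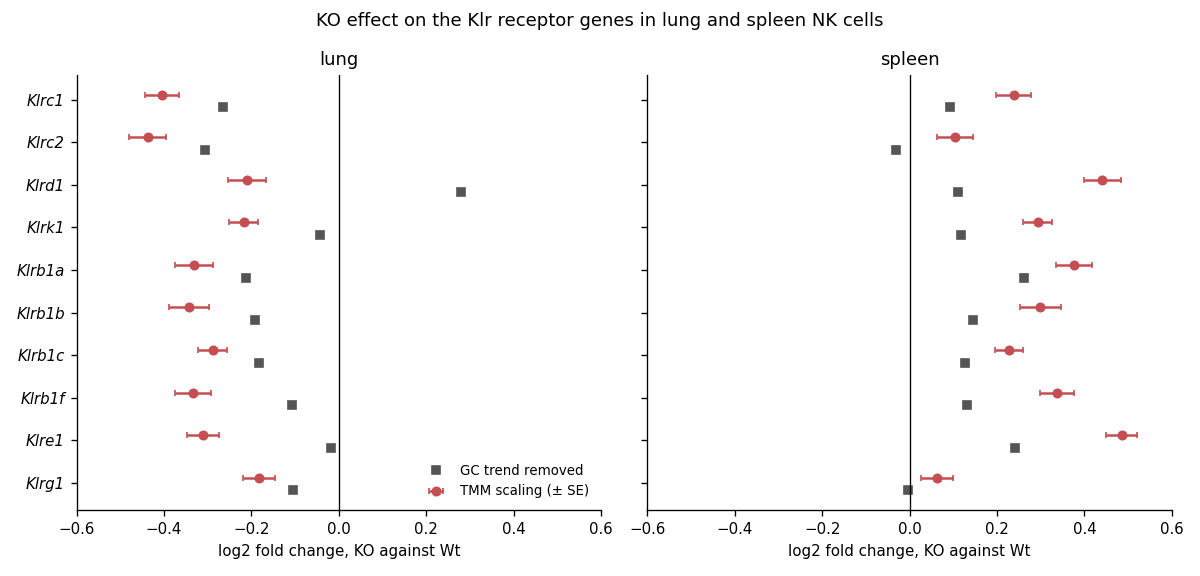
Log2 fold change of KO against Wt (x axis) for each receptor gene in lung (left) and spleen (right). Circles with bars are the estimate and its SE after TMM scaling, and squares the estimate once each library's trend with GC content was removed. The circles lie below 0 in lung and above 0 in spleen, and the squares lie nearer to 0 for most genes, with *Klrd1* at 0.28 in lung.

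The KO effect differed between the organs for all 10 genes when that difference was tested itself, and in each case it was lower in lung. Among all genes tested 61.6% passed this test, and 29.0% with the lower effect in lung. The median difference (lung minus spleen) of the 10 genes was -0.64 on the log2 scale, and the median of the absolute difference over all genes was 0.60. The difference was largest for *Klre1* (-0.80 ± 0.05, adjusted p = 4.40e-16) and smallest for *Klrg1* (-0.24 ± 0.05, adjusted p = 0.000114). With the GC trend removed, the difference of *Klrd1* turned to 0.17 (adjusted p = 0.00813) and that of *Klrg1* did not pass (-0.10, adjusted p = 0.0634), nor did it with library totals (-0.08, adjusted p = 0.172). With the GC content of the longest transcript the differences of *Klrk1* (0.55, adjusted p = 2.29e-13), *Klrc2* (0.23, adjusted p = 0.00026) and *Klrd1* (0.13, adjusted p = 0.0401) passed above 0, and that of *Klrc1* (0.08, adjusted p = 0.138) did not pass.

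In Wt, 8 of the 10 genes were higher in lung than in spleen NK cells, beside 57.0% of all genes that passed in either direction and 27.7% that were higher in lung. Scaling by library totals, which moved the median of all genes in this comparison by -0.107 on the log2 scale, put *Klrk1* below 0 with a pass (-0.08, adjusted p = 0.0446), put *Klrd1* (-0.01) and *Klrb1f* (-0.01) below 0 without one, and ended the call of *Klrb1c* (0.06, adjusted p = 0.114). With the GC trend removed, *Klrd1* (-0.45, adjusted p = 1.37e-12), *Klrk1* (-0.13, adjusted p = 0.000245) and *Klrb1f* (-0.12, adjusted p = 0.00734) were lower in lung in Wt, and *Klre1* did not pass (0.03, adjusted p = 0.473). With the GC content of the longest transcript, 5 genes passed higher in lung and 4 lower, beside 3377 higher and 3704 lower of all 12595 genes tested. *Klrb1b* (log2 fold change 0.77 ± 0.05, adjusted p = 1.46e-16) and *Klrg1* (0.55 ± 0.04, adjusted p = 2.90e-15) had the largest organ differences in Wt. *Klrc1*, *Klrc2*, *Klre1* and *Klrb1a* followed with 0.30 to 0.40, and *Klrb1c* with 0.17. *Klrb1f* had 0.10 ± 0.04 (adjusted p = 0.0441), a call that was lost when either spleen Wt library or lung Wt replicate 1 was left out (adjusted p 0.0915 to 0.192). *Klrk1* (0.02 ± 0.03, adjusted p = 0.549) and *Klrd1* (0.09 ± 0.04, adjusted p = 0.0678) did not pass, and without lung Wt replicate 2 *Klrd1* did (0.19, adjusted p = 0.000266).

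In KO, 8 genes were lower in lung than in spleen, beside 65.6% of all genes that passed in either direction and 31.7% that were lower in lung. The largest differences were those of *Klrb1f* (-0.58 ± 0.04, adjusted p = 2.70e-15), *Klrd1* (-0.56 ± 0.04, adjusted p = 3.36e-14) and *Klrk1* (-0.49 ± 0.03, adjusted p = 1.94e-15). *Klrc2* had the smallest (-0.15 ± 0.04, adjusted p = 0.00157), which did not pass without spleen KO replicate 2 (-0.10, adjusted p = 0.152). Neither *Klrc2* (0.01, adjusted p = 0.774) nor *Klrc1* (-0.07, adjusted p = 0.0695) passed with the GC trend removed. *Klrg1* (0.30 ± 0.04, adjusted p = 4.19e-09) and *Klrb1b* (0.13 ± 0.04, adjusted p = 0.0122) stayed higher in lung. The call of *Klrb1b* was lost without lung KO replicate 2 (0.12, adjusted p = 0.096) or spleen KO replicate 2 (0.13, adjusted p = 0.11). For *Klrd1*, *Klrk1*, *Klrb1a*, *Klrb1c* and *Klrb1f* the group means rose in the order lung KO, spleen Wt, lung Wt and spleen KO. The highest group mean exceeded the lowest by 1.27-fold (*Klrb1c*) to 1.71-fold (*Klrb1b*).

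**Figure D3:**
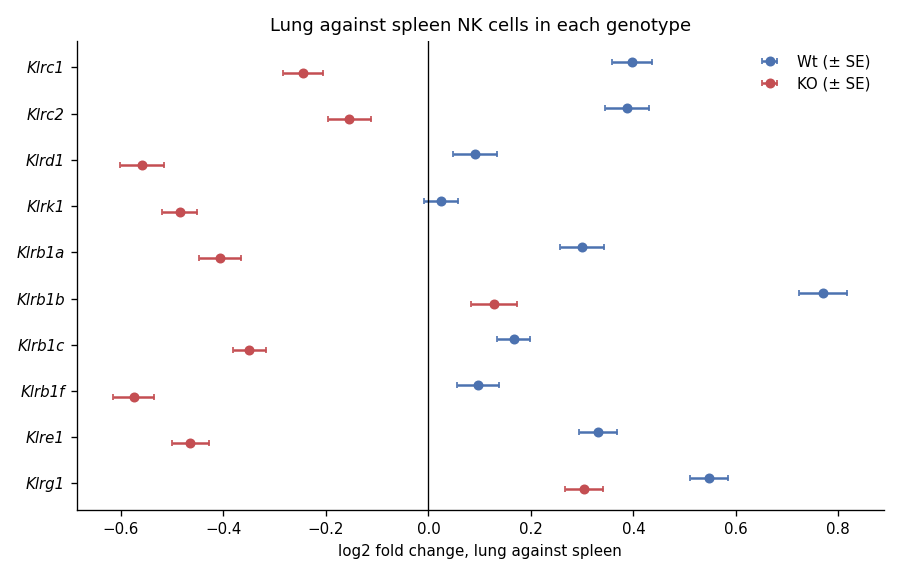
Log2 fold change of lung against spleen NK cells (x axis) for each receptor gene, in Wt (blue) and in KO (red), with bars for the SE. The Wt points lie at or above 0, where *Klrd1*, *Klrk1* and *Klrb1f* fell below it with library totals or with the GC trend removed, and the KO points lie below 0 for all genes but *Klrb1b* (0.13) and *Klrg1* (0.30).

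The GC content of the genes moved with these results. In lung the KO effect rose with the GC content of a gene's principal transcript and in spleen it fell (Spearman's rho 0.294 and -0.279 across 12223 genes, a description, since genes of a library are not independent). All 10 receptor genes had a GC content below the median of genes tested (49.4%), from 36.09% in *Klrd1* to 47.67% in *Klrg1*. With each library's trend removed, an alternative chosen after the data had been seen, 8 of the 10 genes passed in lung (53.9% of all genes did) and 8 in spleen (55.9% of all genes). In lung, *Klrc1* (-0.26), *Klrc2* (-0.31), *Klrb1a* (-0.21), *Klrb1b* (-0.19), *Klrb1c* (-0.18), *Klrb1f* (-0.11) and *Klrg1* (-0.10) stayed lower in KO. *Klrk1* (-0.04, adjusted p = 0.216) and *Klre1* (-0.02, adjusted p = 0.695) did not pass, and *Klrd1*, the gene with the lowest GC content, turned to 0.28 ± 0.04 (adjusted p = 1.41e-07). In spleen, the effects that passed lay between 0.09 (*Klrc1*) and 0.26 (*Klrb1a*), and *Klrc2* and *Klrg1* did not pass. With the GC content of the longest transcript in its place, 3 genes changed sign in both organs: *Klrk1* (0.47 in lung, adjusted p = 4.10e-15, and -0.09 in spleen, adjusted p = 0.0207), *Klrc1* (0.02, adjusted p = 0.573, and -0.06, adjusted p = 0.143) and *Klrc2* (0.03, adjusted p = 0.548, and -0.20, adjusted p = 1.45e-05). *Klrd1* was again higher in lung KO (0.26, adjusted p = 3.80e-07). *Klrb1a*, *Klrb1b*, *Klrb1c*, *Klrb1f* and *Klre1* passed downward in lung and upward in spleen with this GC content. Of all 12595 genes tested, 3031 passed downward in lung and 3279 upward in spleen with it, each organ taken alone.

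**Figure D4:**
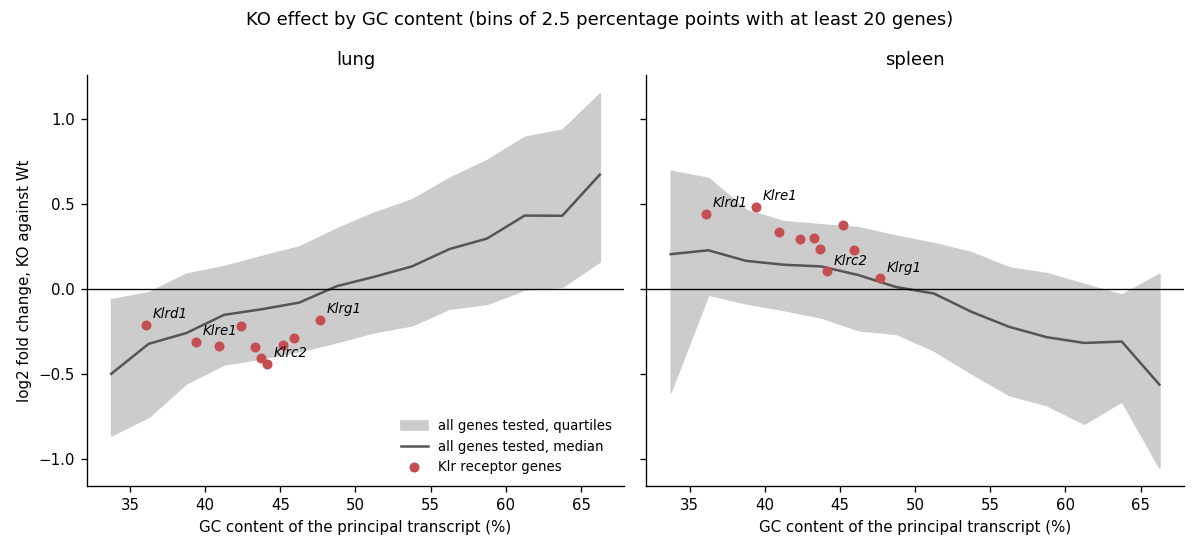
Log2 fold change of KO against Wt (y axis) against the GC content of the principal transcript in percent (x axis), in lung (left) and spleen (right). The line and band are the median and quartiles of all genes tested in bins of GC content, and red points the 10 receptor genes. The band rises with GC content in lung and falls in spleen, and *Klrd1* at 36.09% lies above the line in lung.

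The replicates were alike to a degree that bears on every p above. The fitted biological coefficient of variation was 2.5%. When 0.2 was assumed in its place, 0 of the 10 receptor genes passed in any of the 5 comparisons, while 12.4% of all genes still passed in lung and 9.08% in spleen. The smallest adjusted p of a receptor gene was then 0.387 in lung and 0.342 in spleen. An exact regrouping of 2 against 2 libraries cannot give a p below 0.333.

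Markers of NK cells and of other cells also differed between the groups. The summed level of 6 NK markers, of which *Klrb1c* is 1, was 47321 and 46025 CPM in lung Wt against 35717 and 36198 in lung KO, and 32587 and 31964 in spleen Wt against 44379 and 42120 in spleen KO, so it went with the receptor genes in both organs. *Gzma* and *Nkg7* made up most of this sum, while *Prf1*, the gene of perforin, went the other way (1463 and 1556 CPM in lung Wt against 2477 and 2554 in lung KO, and 1303 and 1320 in spleen Wt against 939 and 938 in spleen KO). The 5 markers of type 1 innate lymphoid cells, which also carry NK1.1, summed to 101 CPM in each lung Wt library, to 58.1 and 56.1 in lung KO, to 150 and 162 in spleen Wt and to 128 and 140 in spleen KO. The markers did not move alike. In lung KO *Cd200r1*, *Il7r* and *Cxcr6* passed downward, while *Itga1* and *Tmem176a* were above 0 and did not pass. In spleen KO *Il7r* and *Itga1* passed downward and *Cxcr6* upward (0.27 ± 0.08, adjusted p = 0.00584), and *Cd200r1* and *Tmem176a* did not pass. The 6 T cell markers summed to 38.9 to 46.9 CPM in lung, to 155 and 157 in spleen Wt and to 137 and 131 in spleen KO. *Cd3d* and *Cd3g* were present in every library, at 55.3 to 72.1 CPM in spleen, while Cd4, Cd8a and *Cd8b1* were at 2.25 CPM or less. *Cd3e* had 32.0 and 32.5 CPM in spleen Wt against 7.51 and 11.1 in spleen KO (log2 fold change -1.60 ± 0.12, adjusted p = 9.64e-14). It did not pass in lung (adjusted p = 0.755), and *Cd3d* and *Cd3g* passed in neither organ for KO against Wt. The 4 B cell markers summed to at most 8.16 CPM in lung and 44.3 in spleen. The marker sums of several other cells were higher in lung KO than in lung Wt, where the receptor genes were lower. The 5 myeloid markers summed to 16.8 and 21.8 CPM in lung Wt and to 28.0 and 30.3 in lung KO, with *Adgre1*, *S100a8* and *S100a9* at no more than 3 reads in every library. The rise was that of *Lyz2* (12.2 and 15.8 CPM in lung Wt, 23.5 and 25.2 in lung KO). *Csf1r* did not pass in lung (log2 fold change -0.05 ± 0.26, adjusted p = 0.913). The 3 lung epithelial markers summed to 239 CPM in each lung Wt library and to 312 and 346 in lung KO, with less than 1 CPM in spleen. This sum followed *Sftpc* (152 and 156 CPM in lung Wt, 251 and 282 in lung KO), whereas *Scgb1a1* was lower in lung KO (87.3 and 83.4 CPM in Wt, 60.4 and 63.9 in KO, adjusted p = 5.66e-06). Platelet markers summed to 29.7 and 28.5 CPM in lung Wt and 5.94 and 6.67 in lung KO. The 3 erythroid markers summed to 18.8 and 23.6 CPM in lung Wt and to 37.5 and 44.2 in lung KO, and the 2 endothelial markers to 67.1 and 60.1 in lung Wt and to 92.1 and 90.5 in lung KO. The part of these markers in the results was not tested.

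Further Klr genes were read beside the 10. Of 7 further genes listed, 4 had enough reads to be tested, and of these 3 passed downward in lung KO and 3 upward in spleen KO (median log2 fold change -0.36 and 0.40). *Klri2*, which encodes a partner chain of *Klre1*, had 2779 and 2626 CPM in lung Wt against 2137 and 2051 in lung KO, and 2144 and 2248 in spleen Wt against 2751 and 2834 in spleen KO. It passed in both organs (log2 fold change -0.37 ± 0.04, adjusted p = 6.85e-11 in lung and 0.35 ± 0.04, adjusted p = 3.13e-10 in spleen). *Klri1*, the alternative partner, had 23.4 to 33.2 CPM and passed in lung (-0.34 ± 0.11, adjusted p = 0.00971) and not in spleen (0.16 ± 0.10, adjusted p = 0.144). In the Ly49 family, whose genes lie next in the complex, 9 of 13 tested genes passed downward in lung KO, and 8 passed upward and 1 downward in spleen KO, with median log2 fold changes of -0.32 and 0.43. Of the 14 tested genes of other families between *Klrb1a* and *Klra1*, 5 passed upward and 4 downward in lung, and 4 upward and 2 downward in spleen (medians -0.07 and 0.17).

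**Figure D5:**
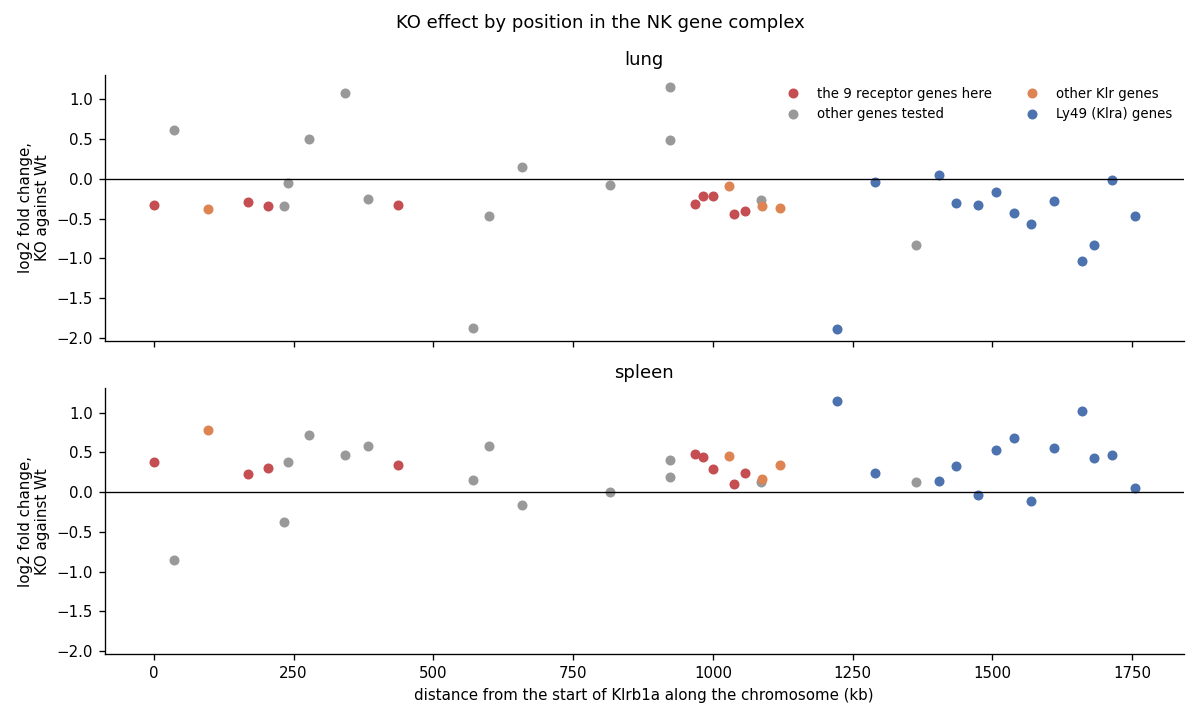
Log2 fold change of KO against Wt (y axis) in lung (top) and spleen (bottom) against the distance in kb from the start of *Klrb1a* (x axis) for every tested gene of the NK gene complex. The 9 receptor genes in the complex (red) lie below 0 in lung and above 0 in spleen without GC correction, and genes of other families (grey) lie on both sides of 0 in each organ.

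The signalling partners of the receptors were split. Of 12 tested adaptor, kinase and phosphatase genes, 2 passed downward and 5 upward in lung KO, and 4 upward and 6 downward in spleen KO (medians 0.13 and -0.08). The adaptor genes *Hcst*, *Tyrobp* and *Fcer1g* and the kinase gene *Syk* were the 4 that passed upward in spleen, and *Fcer1g* and *Syk* the 2 that passed downward in lung. *Fcer1g*, the adaptor of *Klrb1c*, had 2976 and 2737 CPM in lung Wt against 2436 and 2481 in lung KO, and 2301 and 2137 in spleen Wt against 3238 and 3047 in spleen KO (log2 fold change -0.22 ± 0.04, adjusted p = 1.25e-05 in lung and 0.50 ± 0.04, adjusted p = 2.77e-13 in spleen). Reads of *Klrb1c* per read of *Fcer1g* were 1.36 and 1.48 in lung Wt against 1.36 and 1.33 in lung KO, and 1.56 and 1.69 in spleen Wt against 1.29 and 1.39 in spleen KO. In spleen this ratio was lower in KO without overlap. *Syk* passed in the same directions (-0.19 and 0.41). *Tyrobp*, the adaptor DAP12 of NKG2C, passed in spleen (0.25 ± 0.04, adjusted p = 6.21e-06) and had 0.00 ± 0.04 in lung (adjusted p = 0.949). *Zap70*, a kinase related to *Syk*, went the other way (0.62 ± 0.07, adjusted p = 3.72e-10 in lung and -0.68 ± 0.06, adjusted p = 5.05e-12 in spleen). *Vav1* also went the other way (0.43 and -0.18), as did the phosphatase genes used by inhibitory receptors, *Ptpn6* (0.46 and -0.29) and *Inpp5d* (0.16 and -0.28).

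Genes of receptor ligands were low in these cells. Of 19 listed, 15 were in the files and 5 had enough reads to be tested, of which 1 passed upward and 2 downward in lung KO and 1 upward in spleen KO (medians -0.23 and 0.15). *Clec2d*, which encodes a ligand of the inhibitory *Klrb1b* receptor, had 42.5 and 48.2 CPM in lung Wt and 15.1 and 10.1 in lung KO, and at most 5.88 CPM in spleen. Its lung change was -1.88 ± 0.14 (adjusted p = 2.69e-14). *H2-T23*, the gene of the Qa-1 ligand of NKG2A, had a log2 fold change of -0.23 ± 0.08 in lung (adjusted p = 0.0206) and 0.09 ± 0.08 in spleen (adjusted p = 0.345). *Clec2i*, which encodes a ligand of *Klrb1f*, was higher in KO in both organs (0.50 ± 0.09 and 0.71 ± 0.06).

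Genes of NK maturation moved in both directions. Of 13 tested, 5 passed upward and 4 downward in lung KO, and 4 upward and 6 downward in spleen KO (median -0.01 in each organ). *Tbx21*, which encodes the factor T-bet, had 216 and 222 CPM in lung Wt against 478 and 480 in lung KO, and 342 and 331 in spleen Wt against 150 and 147 in spleen KO. Its group means ran in the reverse of the order of *Klrd1*, *Klrk1*, *Klrb1a*, *Klrb1c* and *Klrb1f* (log2 fold change 1.14 ± 0.04, adjusted p = 3.43e-22 in lung and -1.18 ± 0.05, adjusted p = 5.08e-22 in spleen). *S1pr5*, a receptor of egress, went with *Tbx21* (1.02 and -0.51), and so did *Cx3cr1* (0.84 and -0.35). *Prdm1* (-0.86 and 0.55) and *Cma1* (-0.62 and 0.34) of the same list went the other way, as the receptor genes did. *Spn* passed downward in lung (-0.19) and did not pass in spleen (0.01). *Eomes* had 0.02 ± 0.05 in lung (adjusted p = 0.706) and 0.15 ± 0.05 in spleen (adjusted p = 0.0094). *Cd27*, a marker of less mature cells, was higher in KO in both organs (0.39 and 0.36), and *Il7r* was lower in both (-1.38 and -0.39).

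Levels of different receptor genes were compared per length, and the order depended on which length was used. Per kb of all annotated exons, *Klrb1c* was the highest in every group, from 1117 CPM per kb in lung KO to 1423 in spleen KO, and *Klrd1* came next. *Klrc2* was the lowest, from 68.7 to 92.5 CPM per kb. Per kb of the principal transcript, *Klrk1* was the highest, from 2152 CPM per kb in lung KO to 3014 in spleen KO, and *Klrb1b* the lowest, from 83.9 to 143. The exons of *Klrk1* sum to 7183 bp, beside 1270 bp for its principal transcript, and those of *Klrc2* to 5812 bp, beside 1149 bp.

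For each receptor gene, the gene outside the lists whose log2 CPM followed it most closely over the 8 libraries was found among 5049 genes. Pearson's r lay between 0.987 (*Klrc2* and *Tmx1*) and 0.998 (*Klrg1* and *Serbp1*, *Klrb1a* and *Coa3*), values that describe 8 libraries in 4 groups which all these genes share. The closest to *Klrb1b* was *Cd244* (r = 0.997), which encodes 2B4, another receptor of NK cells. The closest to *Klrc1* was *Wapl* (r = 0.996), to *Klrk1* *Laptm4a* (r = 0.995), to *Klrd1* *C1d* (r = 0.991), to *Klre1* *Sub1* (r = 0.996), to *Klrb1f* *Arl6ip1* (r = 0.993) and to *Klrb1c* *4933434E20Rik* (r = 0.997).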

How the data were processed

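RNA of NK cells from lung and spleen was sequenced as 50 bp reads in 8 libraries. Per the labels and methods, the authors aligned reads to mm10 (GRCm38) with HISAT2 2.1.0 and counted them on genes with HTSeq (0.11.1 in the submitters' processing notes), and they deposited the unnormalized read counts by gene symbol. The strand setting and annotation used for counting are not given in the sources used here. Reads that fell on no gene were left out of library totals and were 52.7% to 55.0% of uniquely placed reads.

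The counts were analysed with edgeR 4.0.16 in R 4.3.3: filterByExpr, TMM scaling, 1 mean per group over all 8 libraries, the quasi-likelihood test and Benjamini-Hochberg adjustment over 12595 genes at an FDR of 0.05. Fold changes, SEs and adjusted p-values come from this fit unless another is named. CPM use TMM-adjusted totals. The 2 libraries of a group differed by more than counting noise (variance over counting variance 1.20 to 1.42), and each was counted as 1 sample. Separate preparations of 1 RNA would show this too, so it does not show that they come from separate mice. The SEs come from the quasi-likelihood fit and include the fitted spread between libraries of a group as well as counting error. The floor, the limit in reads given above, covers counting error only. Samples were grouped by their titles. Positions, lengths and GC content came from GENCODE M21 and promoters from RefSeq. A GC value was at hand for 97.0% of tested genes. A library's GC trend was removed by an offset (a spline with 5 degrees of freedom).

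The receptor genes, the other lists and the rule for named genes (every receptor gene, members of fixed lists, and for each receptor gene the most correlated gene with a mean log2 CPM of at least 5) were chosen with earlier results of these data known. The marker genes named were singled out from their lists after their values were seen. The alternatives were scaling by RLE, by the upper quartile or by library totals, a fit without the filter, a stricter filter (10 or more counts in each library), DESeq2 1.42.0, an assumed coefficient of variation of 0.2, a replicate block, a fit of the 4 libraries compared and leaving out each library. The 3 fits with the GC trend removed were added after the data had been seen. The steps were tested on simulated data. Protein sequences were not analysed here.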

Additional observations from a re-analysis of the deposited data

Results flagged for a closer look

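The KO effect differed between lung and spleen, by edgeR's quasi-likelihood test of the difference itself, for every one of the 10 receptor genes and for 27 of the 34 tested genes of the lists of other Klr genes, signalling partners, ligands and maturation genes. In the receptor genes the effect in lung minus that in spleen (log2 scale, 2 libraries per group) was -0.64 for *Klrc1*, -0.54 for *Klrc2*, -0.65 for *Klrd1*, -0.51 for *Klrk1*, -0.71 for *Klrb1a*, -0.64 for *Klrb1b*, -0.52 for *Klrb1c*, -0.67 for *Klrb1f*, -0.80 for *Klre1* and -0.24 for *Klrg1*. The largest adjusted p among them was 0.000114, for *Klrg1*. In the Ly49 family 10 of 13 tested genes passed, all lower in lung. With the GC trend removed, the difference was 0.17 for *Klrd1*, and that of *Klrg1* (-0.10, adjusted p = 0.0634) did not pass.

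The effect was also lower in lung for the related genes *Klri2* (-0.72), *Klrb1* (-1.16), *Klrc3* (-0.54) and *Klri1* (-0.51), for the adaptor and kinase genes *Hcst* (-0.36), *Tyrobp* (-0.24), *Fcer1g* (-0.72) and *Syk* (-0.60), for the ligand genes *Clec2d* (-2.03) and *H2-T23* (-0.32), and for the maturation genes *Il7r* (-0.99), *Cma1* (-0.96), *Prdm1* (-1.41) and *Spn* (-0.19). It was higher in lung for *Zap70* (1.30), *Ptpn6* (0.75), *Inpp5d* (0.45), *Vav1* (0.61), *Lck* (0.15), *Ptpn11* (0.40) and *Pik3r1* (0.18), and for the maturation genes *Kit* (1.22), *Zeb2* (0.19), *Itgam* (0.17), *Tbx21* (2.31), *Cx3cr1* (1.18) and *S1pr5* (1.53). A difference of this kind passed in 61.6% of all genes tested.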

How the results depend on the processing

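For the 10 receptor genes over 5 comparisons, RLE or upper-quartile scaling, either change of the filter, DESeq2, the 4 libraries compared alone and the leaving out of each library changed no sign. Calls were lost for *Klrc2* in spleen (DESeq2, adjusted p = 0.114), for *Klrb1f* in Wt lung against spleen (DESeq2 0.0812, no filter 0.095, the 4 libraries alone 0.053) and for *Klrb1b* in KO lung against spleen (DESeq2 0.101, no filter 0.0567). With an assumed coefficient of variation of 0.2, 0 receptor genes passed in any comparison, and 1557 genes passed in lung, 1144 in spleen, 2017 for the difference, 2011 for lung against spleen in Wt and 2316 in KO. DESeq2 called 4507 genes in lung and 4165 in spleen, in place of 7000 and 7195. Leaving out 1 library gave 4448 to 7270 genes in spleen, the lowest without spleen KO replicate 2, the deepest library, and 10 receptor genes in lung and 8 or 9 in spleen. The library left alone in its group is then assumed to vary like the others.

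Scaling by library totals moved the median of all genes by 0.0935 in lung, 0.160 for the difference and -0.107 for lung against spleen in Wt, and the share of calls that were higher went from 52.5% to 63.3%, from 52.9% to 63.5% and from 48.6% to 36.9%. *Klrg1* in spleen was then -0.0069, and in Wt lung against spleen *Klrd1* was -0.013, *Klrk1* -0.079 (adjusted p = 0.0446) and *Klrb1f* -0.0095. *Klrc2* in spleen (0.04), *Klrb1c* in Wt (0.06) and the difference of *Klrg1* (-0.08) did not pass.

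With the GC trend removed, *Klrd1* was 0.28 in lung and 0.17 for the difference, *Klrc2* -0.031 and *Klrg1* -0.0030 in spleen, *Klrd1* -0.45, *Klrk1* -0.13 and *Klrb1f* -0.12 in Wt lung against spleen, and *Klrc2* 0.013 in KO lung against spleen. With the GC content of the longest transcript, the lung effects of *Klrc1*, *Klrc2*, *Klrd1* and *Klrk1* were 0.023, 0.028, 0.26 and 0.47, and the differences 0.079, 0.23, 0.13 and 0.55. The spleen effects of *Klrc1*, *Klrc2* and *Klrk1* were -0.056, -0.20 and -0.086. In Wt lung against spleen, *Klrc1*, *Klrc2*, *Klrd1*, *Klrk1* and *Klrb1f* were -0.063, -0.11, -0.42, -0.74 and -0.096, and in KO *Klrc1* was 0.016 and *Klrc2* 0.11. The cause was not tested.

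Whether replicate numbers pair the libraries cannot be decided here, with only 2 pairs in each organ and no label that ties them. Within an organ, a Wt and a KO library of the same number had deviations that correlated by -0.0139 in lung and 0.169 in spleen (5103 genes). Pairing of a lung library with a spleen library was not tested. With the replicate block, 10 receptor genes passed in lung, 9 in spleen, 10 for the difference, 8 for Wt and 10 for KO, as without it. Of all 12595 genes tested, 6977, 7185, 7764, 7135 and 8200 passed in these comparisons with the block. In Wt *Klrd1* then passed (adjusted p = 0.0482) and *Klrb1f* did not (0.0521). With the GC trend removed and the replicate block, *Klrd1* was 0.29 in lung, 0.17 for the difference and -0.46 in Wt, *Klrk1* -0.13 and *Klrb1f* -0.12 in Wt, *Klrc2* -0.030 and *Klrg1* -0.0010 in spleen, and *Klrc2* 0.011 in KO. Counting depth did not limit the receptor genes, whose counts exceeded the floor in every library, while 14 of the 19 listed ligand genes were not among the genes tested.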
